A study of Mus musculus with 18 samples.

Results

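The genes described here are readouts of bone morphogenetic protein (BMP) signalling and genes of early mesoderm, 10 of the 34850 genes with a value in the deposited tables. They were chosen by name, with earlier results of these data known, and not by a cutoff on a measured value. They are the ligand gene Bmp4, the BMP-responsive genes Id1, Id2, Id3, Msx1 and Msx2, and the mesoderm and posterior genes T, Evx1, Cdx1 and Cdx2. Expression was read by SC3-seq, a method that sequences the 3' ends of amplified cDNA, in 18 mouse libraries that fall into 9 groups of 2. The study asked which additions to the medium keep primordial germ cell-like cells (PGCLCs) and embryonic primordial germ cells growing in culture.

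Embryonic stem cells (ESCs) were kept in N2B27 medium with PD0325901, a MEK inhibitor, CHIR99021, a GSK3 inhibitor, and LIF. Epiblast-like cells (EpiLCs) were made from them with activin A and FGF2 and taken onward at day 2. PGCLCs were made from EpiLCs in floating aggregates with BMP4 at 500 ng/ml, LIF, SCF and EGF, and were sorted at day 4 for the Blimp1-mVenus reporter (d4 PGCLC). ESCs and EpiLCs were unsorted. All 3 groups are labelled C57BL/6 and carry the Blimp1-mVenus and Stella-ECFP reporters. Cultured PGCLCs carry the same reporters, are labelled B6D2F1, and were sorted for mVenus. They were grown for 7 days after day 4 on m220-5 feeder cells, and the 4 groups are labelled d4c7 with CsA (cyclosporin A, a calcineurin inhibitor), FGF10, FGF2, or FR10, which stands for forskolin, an activator of adenylyl cyclase, at 10 µM with rolipram, a phosphodiesterase inhibitor. Germ cells of E9.5 embryos carry Stella-EGFP, are labelled B6D2F1 x C57BL/6, were sorted for EGFP, and were cultured for 5 days with CsA or FR10 (E9.5c5). The labels give no dose for CsA or the FGFs and do not say whether the FGF10 label names the factor FGF10 or a dose, or whether forskolin and rolipram were also present with CsA and the FGFs, although the 1 culture medium described holds both. That medium names SCF and no BMP4. Cultured and uncultured PGCLCs carry different strain labels, and the effects of strain and of culture cannot be told apart.

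BMP ligands bind pairs of serine/threonine kinase receptors, which phosphorylate SMAD1 and its relatives. These join SMAD4, enter the nucleus and switch on target genes, of which the Id genes are the most widely used readout. Id proteins lack a DNA-binding domain and hold basic helix-loop-helix factors inactive. In the mouse embryo, BMP4 from the extraembryonic ectoderm acts on the epiblast to start both posterior mesoderm and the germ cell lineage, and germ cell precursors pass through a phase in which mesoderm genes are on before that programme is shut down. T (Brachyury), Evx1 and the Cdx genes are genes of the primitive streak and the posterior body. Fewer cells of a type and less RNA per cell cannot be told apart in these bulk libraries.

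Promoter sequence was read from RefSeq on GRCm38.p6, the patch release of the mm10 build named in the submitters' processing notes, as windows from 250 bases before to 50 after each gene's start. Of the 10 genes, 8 had a window, and Id1 and Cdx1 had none. Known SMAD-binding elements were searched on both strands: GGCGCC, the palindrome GTCTAGAC, and CAGAC with its reverse complement GTCTG. None of these motifs overlaps another in the windows shown. Shown are the member windows with matches whose genes passed the filter on low values, Id2 (chr12:25096043-25096342, minus strand), Id3 (chr4:136143572-136143871, plus strand) and Evx1 (chr6:52313248-52313547, plus strand), together with Smad6 (chr9:64022010-64022309, minus strand), an inhibitory SMAD gene of the same pathway that holds the palindrome. Capitals mark the matches.
Id2: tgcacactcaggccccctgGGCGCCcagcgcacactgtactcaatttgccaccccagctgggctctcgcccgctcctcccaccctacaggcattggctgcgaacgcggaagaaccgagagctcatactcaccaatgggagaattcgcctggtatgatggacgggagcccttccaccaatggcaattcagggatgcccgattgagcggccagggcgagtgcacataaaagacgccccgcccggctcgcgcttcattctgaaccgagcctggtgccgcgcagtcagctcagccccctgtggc
Id3: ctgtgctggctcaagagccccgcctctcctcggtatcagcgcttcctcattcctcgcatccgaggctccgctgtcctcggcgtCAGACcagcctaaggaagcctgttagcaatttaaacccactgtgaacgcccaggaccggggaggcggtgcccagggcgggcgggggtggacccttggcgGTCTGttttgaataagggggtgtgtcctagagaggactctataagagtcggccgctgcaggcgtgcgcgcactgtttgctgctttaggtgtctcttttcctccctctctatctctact
Evx1: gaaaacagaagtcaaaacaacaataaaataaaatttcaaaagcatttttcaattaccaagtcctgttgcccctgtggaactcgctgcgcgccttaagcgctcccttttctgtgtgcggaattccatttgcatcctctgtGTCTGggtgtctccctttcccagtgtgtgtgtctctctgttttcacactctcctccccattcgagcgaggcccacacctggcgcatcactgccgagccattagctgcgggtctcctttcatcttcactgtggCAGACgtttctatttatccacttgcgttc
Smad6: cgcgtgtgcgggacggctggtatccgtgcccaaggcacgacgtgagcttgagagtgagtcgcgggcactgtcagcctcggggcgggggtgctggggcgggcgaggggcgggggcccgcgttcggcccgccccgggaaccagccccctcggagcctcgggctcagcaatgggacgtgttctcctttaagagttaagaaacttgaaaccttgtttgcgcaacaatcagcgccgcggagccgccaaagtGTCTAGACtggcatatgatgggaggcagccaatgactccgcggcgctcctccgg
Id2 held GGCGCC at position -231, counted from its start site, and 11.866% of the 32851 windows held that motif. Smad6 held GTCTAGAC at position -4, a motif found in 0.213% of windows. Id3 and Evx1 each held 2 copies of CAGAC or GTCTG, and Cdx2 held 1, but 49.594% of windows held at least 1. The windows of Msx1, Msx2, Bmp4 and T held none of the 3 motifs. A match is a description of the letters and not a measured site.

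The deposited values are RPM, reads scaled to a common total per library, with no term for transcript length. The depth inferred from the spacing of low values was 2129399 to 7547669 reads per library, so 3 reads correspond to 0.397 to 1.41 RPM, and this limit covers counting error only. Between replicates the median absolute log2 difference was 0.193 to 0.290 in 6 groups, but 0.601 for E9.5c5 CsA, 0.468 for d4c7 FGF2 and 0.426 for E9.5c5 FR10. All 10 germ cell markers examined exceeded 3 reads in every d4 PGCLC and cultured library. So did 9 of them in each ESC library, and 8 and 6 in the EpiLC libraries, so this count separates the groups little. The markers summed to 559 and 613 RPM in ESCs, 313 and 345 RPM in EpiLCs, and 2129 and 2058 RPM in d4 PGCLCs. The summed level of 4 formative epiblast markers was 1642 to 1657 RPM in EpiLCs and at most 121 RPM elsewhere. For ESCs, EpiLCs and d4 PGCLCs nothing says that replicates came from separate cultures, so p-values there measure a spread that may be technical.

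**Figure D1:**
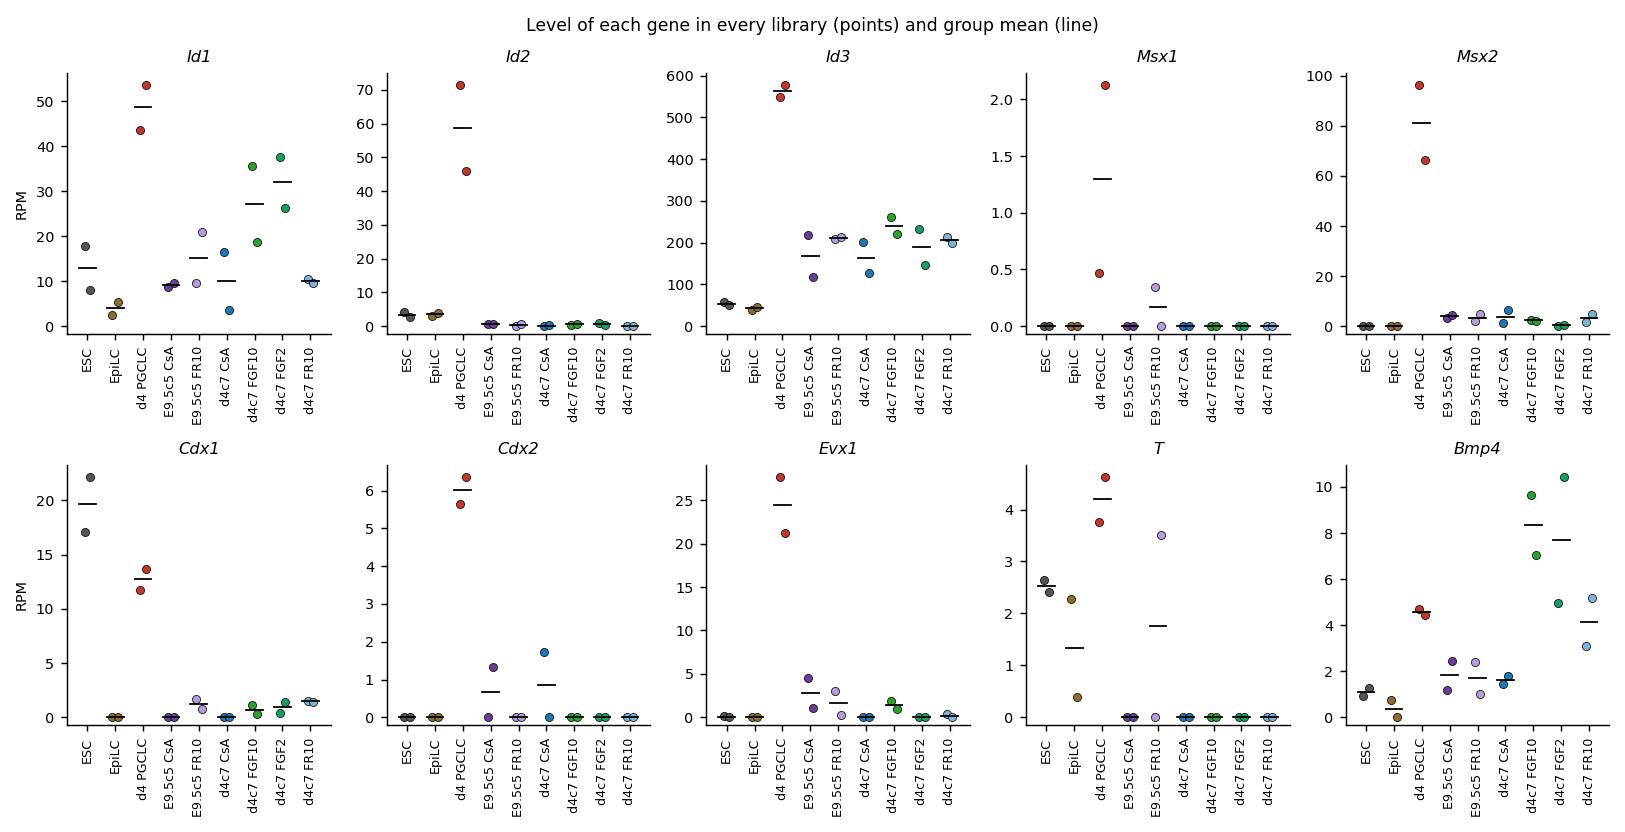
RPM of the 10 genes in each of the 18 libraries (points), with the mean of each group of 2 as a line; the vertical scales differ between panels. Id1, Id2, Id3, Msx1, Msx2, Cdx2, Evx1 and T have their highest group mean in d4 PGCLCs, Cdx1 in ESCs and Bmp4 in d4c7 FGF10.

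The ligand transcript itself was scarce throughout. Bmp4 stood at 0.927 and 1.29 RPM in ESCs, 0.762 and 0 RPM in EpiLCs, and 4.70 and 4.44 RPM in d4 PGCLCs, which had been given BMP4 protein. In cultured PGCLCs Bmp4 stood at 1.45 and 1.81 RPM with CsA, 9.64 and 7.04 RPM with FGF10, 4.95 and 10.4 RPM with FGF2, and 3.10 and 5.18 RPM with FR10. In cultured embryo germ cells it was 1.21 and 2.45 RPM with CsA and 2.38 and 1.00 RPM with FR10. Both d4 libraries lay above every ESC and EpiLC library, and the largest value of any library rested on 43 inferred reads.

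Id3 was the most abundant of the 10 in every library. Its level was 56.4 and 49.8 RPM in ESCs, 38.7 and 46.4 RPM in EpiLCs, 549 and 578 RPM in d4 PGCLCs, and 213 and 200 RPM in d4c7 FR10. All 12 cultured libraries lay between 116 and 260 RPM, above all ESC and EpiLC libraries and below both d4 libraries.

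Id1 stood at 17.9 and 7.95 RPM in ESCs, 2.48 and 5.42 RPM in EpiLCs, 43.7 and 53.7 RPM in d4 PGCLCs, and 10.5 and 9.67 RPM in d4c7 FR10. The cultured libraries ran from 3.63 to 37.7 RPM with a median of 13.5 RPM. They overlapped the ESC values, and none reached the d4 values. In the order of group means only d4 PGCLC, at the top, and EpiLC, at the bottom, were separate from their neighbour.

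Id2 differed from Id1 and Id3 in its level after culture. It stood at 4.11 and 2.59 RPM in ESCs, 3.05 and 3.87 RPM in EpiLCs, and 71.4 and 46.0 RPM in d4 PGCLCs. In d4c7 FR10 it was listed at 0 in both libraries. The 12 cultured libraries had at most 0.761 RPM, and 4 of them were listed at 0. Every cultured library was therefore below every ESC and EpiLC library for Id2, whereas for Id3 every cultured library was above them.

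Of the Msx genes, homeobox genes that respond to BMP in many embryonic tissues, Msx2 was abundant and Msx1 was near the detection limit. Msx2 was listed at 0 in all 4 ESC and EpiLC libraries and reached 96.3 and 66.2 RPM in d4 PGCLCs. In d4c7 FR10 it stood at 1.55 and 4.83 RPM, and the cultured libraries ran from 0 to 6.35 RPM. Msx1 had 0.470 and 2.12 RPM in d4 PGCLCs, which are 1 and 11 inferred reads. It was listed at 0 elsewhere except for 1 inferred read in E9.5c5 FR10 replicate 1.

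Evx1, a homeobox gene of the primitive streak, had 0.132 and 0 RPM in ESCs, 0 RPM in both EpiLC libraries, and 27.7 and 21.2 RPM in d4 PGCLCs. It had 0.387 and 0 RPM in d4c7 FR10. The highest cultured group mean was in E9.5c5 CsA, at 4.52 and 1.13 RPM. It overlapped E9.5c5 FR10, at 3.06 and 0.251 RPM.

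Among the Cdx genes, which set posterior identity upstream of Hox genes, Cdx1 was the one of the 10 with its highest group mean in ESCs. It stood at 17.1 and 22.2 RPM in ESCs, 0 RPM in both EpiLC libraries, and 11.7 and 13.7 RPM in d4 PGCLCs. In d4c7 FR10 it had 1.55 and 1.38 RPM, and no cultured library exceeded 1.70 RPM. Cdx2 had 5.64 and 6.37 RPM in d4 PGCLCs and was listed at 0 in all ESC and EpiLC libraries and in 10 of 12 cultured ones.

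T, the T-box factor of the primitive streak, was low even where it was found. It stood at 2.65 and 2.40 RPM in ESCs, 2.29 and 0.387 RPM in EpiLCs, and 3.76 and 4.63 RPM in d4 PGCLCs. All 8 d4c7 libraries and 3 of the 4 E9.5c5 libraries were listed at 0, and E9.5c5 FR10 replicate 2 had 3.52 RPM. Both d4 libraries lay above the ESC and EpiLC libraries, at 8 and 24 inferred reads.

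For tests, genes with at least 10 RPM in at least 2 libraries were kept, which left 9561 genes. Id1, Id2, Id3, Msx2, Cdx1 and Evx1 passed and Msx1, Cdx2, Bmp4 and T did not. Id2, Msx2 and Evx1 passed through the d4 PGCLC libraries alone, so a difference of those 3 genes from d4 is built into the filter, and their number is no support for one. Differences below are log2(RPM + 1) of the first group minus the second with the standard error from limma, and adjusted p is Benjamini-Hochberg over all 9561 genes. That scale understates the change of low genes. No fold is given against a group at 0.

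In d4 PGCLCs against EpiLCs, the step at which BMP4 was added, 6 of 6 tested genes were called higher at adjusted p under 0.05, beside 27.5% of all tested genes called higher, 12.1% lower and 39.6% in all. All 6 were also higher without overlap, as were 52.3% of tested genes. Both counts include Id2, Msx2 and Evx1, which passed the filter through d4 PGCLCs alone, and are descriptions only. Id3 averaged 564 ± 21.2 RPM in d4 PGCLCs and 42.5 ± 5.49 RPM in EpiLCs (SD, n = 2 each), a 13.2-fold difference of means and a log2 difference of 3.70 ± 0.28 (limma adjusted p = 5.6e-08). Id1 averaged 48.7 ± 7.07 RPM in d4 PGCLCs and 3.95 ± 2.08 RPM in EpiLCs, a log2 difference of 3.39 ± 0.57 (limma adjusted p = 0.000213). Id2 averaged 58.7 ± 17.98 RPM in d4 PGCLCs and 3.46 ± 0.581 RPM in EpiLCs, a log2 difference of 3.71 ± 0.46 (limma adjusted p = 1.13e-05). Id3 and Id1 thus rose by similar amounts on the log2 scale, although Id3 was well above Id1 in both groups. The difference of Id2 is built into the filter and is not counted with them.

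Msx2 (limma adjusted p = 4.17e-07), Cdx1 (9.34e-06) and Evx1 (9.86e-06) were called higher in d4 PGCLCs against EpiLC libraries that were all at 0. With no filter on low values 21360 genes entered, of which 2720 were called higher and 1815 lower. Of the members under the filter, Cdx2 (limma adjusted p = 0.000392), Msx1 (0.00765) and Bmp4 (0.0122) then passed, and T did not (0.128). Msx1 rests on 1 and 11 inferred reads in d4 PGCLCs. The median log2 difference of all tested genes was 0.34 in this comparison and 0.00 after rescaling each library to the median ratio. After rescaling, Id3, Id2 and Id1 stood at 3.34, 3.37 and 3.05, and the calls over all genes split into 1666 higher and 1786 lower, against 2629 higher and 1155 lower on the deposited scale. The summed level of 18 feeder and fibroblast markers was 1149 and 1172 RPM in d4 PGCLCs, with 9 and 11 of 18 above 3 reads, and 387 and 344 RPM in EpiLCs, with 11 of 18 in each. Its part in these differences was not tested, and sorted d4 cells were set against unsorted EpiLCs.

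In d4 PGCLCs against ESCs, 5 of the 6 tested genes were called higher and none lower, beside 24.3% and 10.2% of all tested genes (34.5% in all). Those 5 were higher without overlap, as were 53.7% of tested genes. Both counts include Id2, Msx2 and Evx1, which passed the filter through d4 PGCLCs alone, and are descriptions only. Id3 was 10.6-fold higher by the group means, with a log2 difference of 3.39 ± 0.28 (limma adjusted p = 2.21e-07). Id2 had a log2 difference of 3.77 ± 0.46 (limma adjusted p = 1.25e-05). Id1, at 48.7 RPM in d4 PGCLCs and 12.9 RPM in ESCs, had a smaller one of 1.93 ± 0.57 (limma adjusted p = 0.0157). That call was lost without ESC replicate 2 (0.178), d4 PGCLC replicate 1 (0.0581) or d4 PGCLC replicate 2 (0.0931). Msx2 and Evx1 were called higher (limma adjusted p = 6.15e-07 and 1.53e-05). Cdx1 averaged 12.7 ± 1.39 RPM in d4 PGCLCs and 19.6 ± 3.61 RPM in ESCs and was not called (log2 difference -0.58 ± 0.46, limma adjusted p = 0.351). Rescaling by the median ratio gave 1384 higher and 1503 lower calls over all genes, against 2328 and 971 on the deposited scale. The fibroblast list summed to 1149 and 1172 RPM in d4 PGCLCs and to 2182 and 2119.5 RPM in ESCs, and its part was not tested.

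In EpiLCs against ESCs, 1 of the 6 tested genes was called, beside 7.09% of all tested genes called higher, 8.86% lower and 16% in all. Cdx1 was called lower (limma adjusted p = 4.36e-06), being at 0 in EpiLCs. Id1 averaged 3.95 ± 2.08 RPM in EpiLCs and 12.9 ± 7.02 RPM in ESCs, a log2 difference of -1.46 ± 0.57 that did not pass (limma adjusted p = 0.101). Id3 differed by -0.32 ± 0.28 (limma adjusted p = 0.538), with an interval of -0.91 to 0.28. Id2 differed by 0.05 ± 0.46 (limma adjusted p = 0.968).

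**Figure D2:**
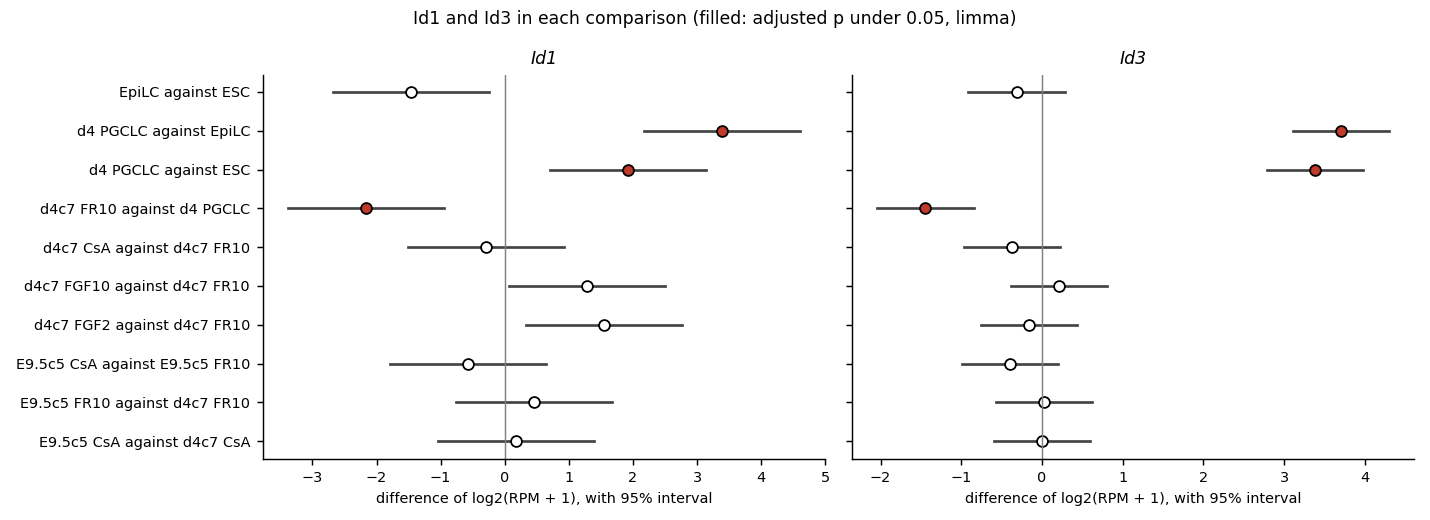
Differences of log2(RPM + 1) for Id1 and Id3 in each comparison (first group minus second), with 95% intervals from limma; filled points have adjusted p under 0.05 over 9561 genes. Both genes are called higher in d4 PGCLCs against EpiLCs (3.39 and 3.70) and lower in d4c7 FR10 against d4 PGCLCs (-2.16 and -1.44), and in no comparison among cultured groups.

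After 7 days of culture in FR10, all 6 tested genes were called lower than at d4, beside 8.22% of all tested genes called lower, 7.01% higher and 15.2% in all. All 6 were lower without overlap, as were 36.5% of tested genes. Id2, Msx2 and Evx1 passed the filter through d4 PGCLCs alone, so the count of 6 is a description and no support for a fall. The 6 differences varied in size, but those of Id2, Msx2 and Evx1 are built into the filter and are given as descriptions. Id3 averaged 206 ± 9.25 RPM in d4c7 FR10 and 564 ± 21.2 RPM in d4 PGCLCs, so 0.366 of the d4 mean was left (log2 difference -1.44 ± 0.28, limma adjusted p = 0.00226). Id1 averaged 10.1 ± 0.558 RPM in d4c7 FR10 and 48.7 ± 7.07 RPM in d4 PGCLCs, with 0.207 of the d4 mean left (-2.16 ± 0.57, limma adjusted p = 0.0175). The Id1 call is not firm: it was lost without any one of the 4 libraries (limma adjusted p = 0.0781 to 0.116) and with no filter on low values (0.0512).

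Msx2 averaged 3.19 ± 2.32 RPM in d4c7 FR10 and 81.3 ± 21.2 RPM in d4 PGCLCs, with 0.0393 of the d4 mean left (-4.39 ± 0.58, limma adjusted p = 8.74e-05). Cdx1 averaged 1.46 ± 0.119 RPM in d4c7 FR10 and 12.7 ± 1.39 RPM in d4 PGCLCs (-2.47 ± 0.46, limma adjusted p = 0.00158). Evx1 had 1 inferred read over both d4c7 FR10 libraries, against 59 and 110 in the d4 PGCLC libraries (limma adjusted p = 7.44e-05). Id2 had no reads in d4c7 FR10, against 152 and 238 inferred reads in the d4 PGCLC libraries (limma adjusted p = 7.39e-07). With no filter on low values 21360 genes entered, of which 663 were called higher and 857 lower. Of the members under the filter, Cdx2 (limma adjusted p = 0.00145), Msx1 (0.0207) and T (0.0212) were then called lower. Msx1 rests on 1 and 11 inferred reads in d4 PGCLCs and T on 8 and 24. Bmp4 stood at 4.14 ± 1.47 RPM in d4c7 FR10 and 4.57 ± 0.180 RPM in d4 PGCLCs.

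The fibroblast list summed to 1045 and 989 RPM in d4c7 FR10, with 14 of 18 genes above 3 reads in each library, and to 1149 and 1172 RPM in d4 PGCLCs. Lum was at 0 in every library and Thy1 at 0 in every cultured one. Col3a1 and Dcn, picked from this list, together reached 146 and 101 RPM in d4c7 FR10, against 0.939 and 0 RPM in d4 PGCLCs. The summed list did not rise with them. The part of feeder RNA in the cultured values was not tested.

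Among cultured PGCLCs, each of the 3 other additions was compared with the same 2 FR10 libraries, so the 3 comparisons share their reference. None of the 6 tested genes was called in any of them. With CsA, Id1 averaged 10.1 ± 9.10 RPM, against 10.1 ± 0.558 RPM with FR10, and the CsA libraries lay on either side of FR10 (log2 difference -0.30 ± 0.57, limma adjusted p = 0.868). Without CsA replicate 2 the difference turned to 0.66. Id3 averaged 164 ± 53.5 RPM with CsA and 206 ± 9.25 RPM with FR10 (-0.37 ± 0.28, limma adjusted p = 0.596), with an interval of -0.97 to 0.23. Cdx1 was at 0 in both CsA libraries and at 4 inferred reads in each FR10 library (limma adjusted p = 0.237), a separation that 41.6% of tested genes shared. In this comparison 0.0314% of all tested genes were called, 0.0209% higher and 0.0105% lower, 1317 had an unadjusted p under 0.05, and voom on inferred reads called 2.

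With FGF10, Id1 had 35.6 and 18.7 RPM, against 10.5 and 9.67 RPM with FR10, and the groups did not overlap. The log2 difference was 1.28 ± 0.57 (limma adjusted p = 0.979), and 15.1% of all tested genes were higher without overlap. Id3 had 260 and 220 RPM with FGF10, against 213 and 200 RPM with FR10 (0.21 ± 0.28, limma adjusted p = 0.99). Evx1 had 5 and 3 inferred reads with FGF10, against 1 and 0 with FR10. Bmp4 had 26 and 23 inferred reads with FGF10, against 8 and 15 with FR10, and was not tested because of the filter. No gene was called in this comparison (0%), 477 had an unadjusted p under 0.05, and voom on inferred reads called 0.

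With FGF2, Id1 had 37.7 and 26.2 RPM, against 10.5 and 9.67 RPM with FR10. The groups did not overlap, as for 15.2% of all tested genes in that direction. The log2 difference of 1.55 ± 0.57 had an interval of 0.34 to 2.77 and did not pass the threshold (limma adjusted p = 0.0935). Msx2 had 0 and 0.486 RPM with FGF2, against 1.55 and 4.83 RPM with FR10, a log2 difference of -1.66 ± 0.58 (limma adjusted p = 0.0795), with no overlap, as for 43.2% of tested genes in that direction. Id3 had 232 and 147 RPM with FGF2, against 213 and 200 RPM with FR10 (-0.16 ± 0.28, limma adjusted p = 0.73). Its direction turned to 0.15 after rescaling by the median ratio and to 0.17 without FGF2 replicate 2. Of all tested genes 8.84% were called, 1.37% higher and 7.47% lower, a share that rests on single libraries: 845 genes became 5 without FR10 replicate 1, 151 without FR10 replicate 2, 1722 without FGF2 replicate 1 and 75 without FGF2 replicate 2. Rescaling gave 285 higher and 259 lower calls, against 131 and 714 on the deposited scale.

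**Figure D3:**
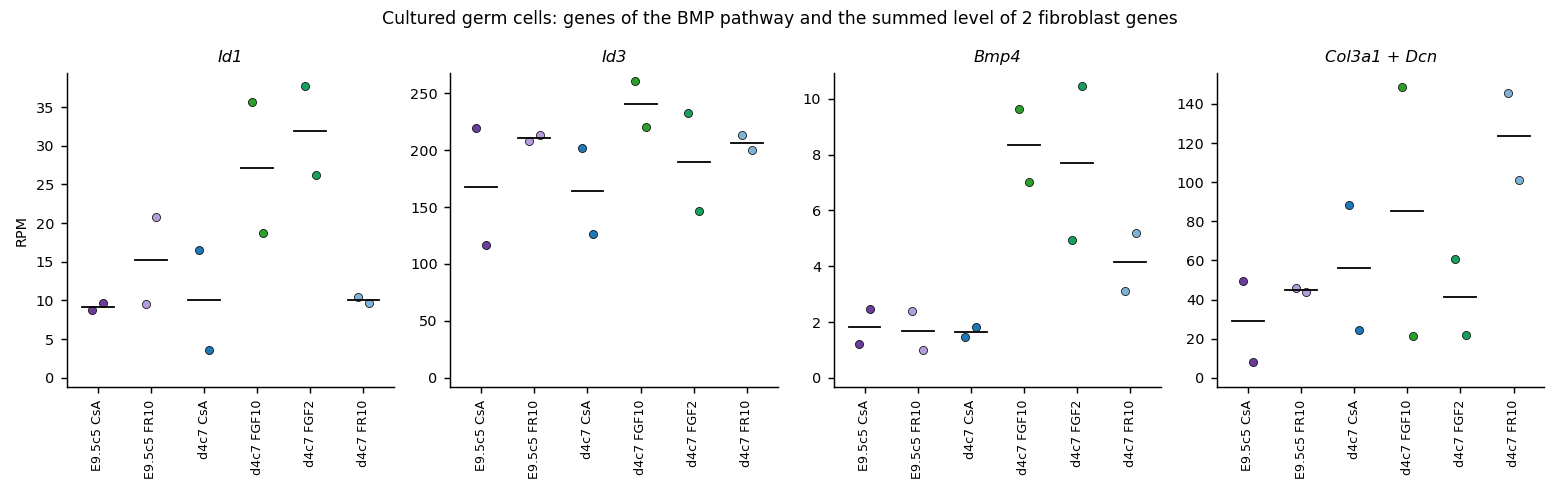
RPM of Id1, Id3, Bmp4 and the sum of Col3a1 and Dcn in the 12 cultured libraries (points) with group means (lines). Col3a1 and Dcn were picked from the 18 feeder and fibroblast markers, and vertical scales differ. Id1 lies at 18.7 to 37.7 RPM with FGF10 and FGF2, against 9.67 and 10.5 RPM with FR10 in d4c7, while Col3a1 and Dcn range from 8.29 to 149 RPM over the libraries and differ within groups.

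The fibroblast list summed to 935 and 690 RPM with CsA, 899 and 599 RPM with FGF10, 639 and 301 RPM with FGF2, and 1045 and 989 RPM with FR10, with 9 to 14 of 18 genes above 3 reads. It was lower than with FR10 in all 3 other groups, and Id1 was higher without overlap in the 2 FGF groups. Its part in the Id1 values was not tested. The sum is not a gauge of feeder cells alone. It was highest in ESCs, at 2182 and 2119.5 RPM, with 6 and 9 of 18 genes above 3 reads and Col3a1 and Dcn at 0.

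In cultured embryo germ cells, the E9.5c5 CsA group was set against E9.5c5 FR10, and none of the 6 tested genes was called. Id1 had 8.74 and 9.61 RPM with CsA, against 9.53 and 20.8 RPM with FR10 (log2 difference -0.58 ± 0.57, limma adjusted p = 0.836). Id3 had 219 and 116 RPM with CsA, against 208 and 213 RPM with FR10 (-0.40 ± 0.28, limma adjusted p = 0.764), and the difference turned to 0.06 without CsA replicate 2. Cdx1 was at 0 in both CsA libraries, against 5 and 3 inferred reads with FR10 (limma adjusted p = 0.601), a separation that 16.8% of tested genes shared. No gene was called (0%), 703 had an unadjusted p under 0.05, voom on inferred reads called 1, and the limma count became 654 without E9.5c5 CsA replicate 1. The fibroblast list summed to 855 and 251 RPM with CsA and to 616 and 430 RPM with FR10. For none of the 6 genes did the CsA difference itself differ between E9.5c5 and d4c7 cells (interaction, limma adjusted p = 0.934 to 0.997), which at this depth and number of libraries does not show that they respond alike.

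In E9.5c5 against d4c7 cells, the FR10 groups differed by 0.03 ± 0.28 for Id3, with an interval of -0.57 to 0.63, and by 0.46 ± 0.57 for Id1 (limma adjusted p = 0.971 and 0.724). The CsA groups differed by 0.00 ± 0.28 for Id3 and 0.18 ± 0.57 for Id1 (limma adjusted p = 1 and 0.928). Evx1 had 15 and 6 inferred reads in E9.5c5 CsA, against none in d4c7 CsA (limma adjusted p = 0.319), a separation shared by 16.2% of tested genes. Besides origin, E9.5c5 and d4c7 cells differ in strain label, sorting reporter and days in culture (5 and 7). None of the 6 was called in either comparison, beside 0.0418% and 0.0105% of all tested genes, where 1421 and 1054 genes had an unadjusted p under 0.05 and voom on inferred reads called 3 and 7.

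Other genes of the pathway were taken from 7 lists of ligands, receptors, SMADs, inhibitors, further BMP targets, mesoderm genes and Wnt genes. The lists held 89 genes, of which 32 were tested. Smad6, Cdh2 and Wnt5a passed the filter through the d4 PGCLC libraries alone, and Fst, Id4, Tbx3, Nkx1-2 and Sp5 through the ESC libraries alone. A difference of these genes from that group is built into the filter, so the counts below are descriptions and no support for one. In d4 PGCLCs against EpiLCs, 16 of the 32 were called higher and 3 lower, beside 27.5% and 12.1% of all tested genes. Of these 19 calls, 4 were lost on leaving out 1 library: Gdf3 and Cdh2 without any one of the 4 libraries, Skil without 3 of them and Smurf1 without EpiLC replicate 2. The median log2 difference of the 32 was 1.04, beside 0.34 over all tested genes. Of the SMADs, 1 of 3 was called: Smad6, an inhibitory SMAD that is itself a BMP target, had 57.8 and 40.4 RPM in d4 PGCLCs, against 3.24 and 3.48 RPM in EpiLCs (3.50 ± 0.48, limma adjusted p = 2.74e-05).

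Inhibitors and modulators moved in both directions, 3 higher and 3 lower of 9. Bambi, a decoy receptor, had 61.1 and 46.9 RPM in d4 PGCLCs, against 6.67 and 11.2 RPM in EpiLCs (2.49 ± 0.46, limma adjusted p = 0.00042). Fstl1, a secreted follistatin-like protein, had 758 and 562 RPM in d4 PGCLCs, against 69.0 and 53.8 RPM in EpiLCs (3.40 ± 0.41, limma adjusted p = 7.77e-06). Fst, follistatin, which binds activin and BMPs, had 0 and 0.193 RPM in d4 PGCLCs, against 4.76 and 7.35 RPM in EpiLCs (limma adjusted p = 0.000383).

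Both tested ligands, Bmp7 and Gdf3, and 3 of 6 further targets were called higher. The Gdf3 call (log2 difference 0.52, limma adjusted p = 0.0456) is not firm: its difference fell to 0.16 with median-ratio scaling (limma adjusted p = 0.614). The ligand Bmp7 had 60.6 and 58.1 RPM in d4 PGCLCs, against 4.95 and 3.87 RPM in EpiLCs (3.49 ± 0.29, limma adjusted p = 1.8e-07). Gata2, a GATA factor of mesoderm and blood, had 115 and 80.7 RPM in d4 PGCLCs, against 0.952 and 0.774 RPM in EpiLCs (5.71 ± 0.44, limma adjusted p = 6.66e-08). Hey1, a helix-loop-helix repressor, had 174 and 147 RPM in d4 PGCLCs, against 5.14 and 6.58 RPM in EpiLCs (4.56 ± 0.25, limma adjusted p = 1.14e-09).

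The 3 tested genes of the mesoderm list, Lhx1, Nkx1-2 and Cdh2, and the 4 tested Wnt genes were called higher. Cdh2 and Wnt5a among them passed the filter through d4 PGCLCs alone, and 0 of 5 receptors was called. Cdh2 also missed the threshold with median-ratio scaling (limma adjusted p = 0.0908). Lhx1, a LIM homeobox gene of the streak, had 6.11 and 7.72 RPM in d4 PGCLCs, against 0 and 0.387 RPM in EpiLCs (limma adjusted p = 0.00119). Axin2, a direct target of Wnt signalling, had 10.3 and 21.05 RPM in d4 PGCLCs, against 0 and 0.387 RPM in EpiLCs (limma adjusted p = 0.000104). Lef1, a nuclear partner of beta-catenin, had 101 and 79.0 RPM in d4 PGCLCs, against 17.3 and 23.2 RPM in EpiLCs (2.10 ± 0.47, limma adjusted p = 0.00195).

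In d4c7 FR10 against d4 PGCLCs, 5 of the 32 were called higher and 10 lower, beside 7.01% and 8.22% of all tested genes. Of these 15 calls, 8 were lost on leaving out 1 library: Eng, Id4, Hey1 and Cdh2 without any one of the 4 libraries, and Gata6, Lef1, Fst and Wnt5a without some of them. Smad6 had 3.10 and 2.76 RPM in d4c7 FR10, against 57.8 and 40.4 RPM in d4 PGCLCs (-3.65 ± 0.48, limma adjusted p = 7.79e-05). Bambi had 7.74 and 7.60 RPM, against 61.1 and 46.9 RPM in d4 PGCLCs (-2.65 ± 0.46, limma adjusted p = 0.000849), and Fstl1 had 43.8 and 39.01 RPM, against 758 and 562 RPM (-3.95 ± 0.41, limma adjusted p = 9.59e-06). In d4c7 FR10 these 3 genes stood within or below the range of the EpiLC libraries. Lhx1 did not follow them: it had 26.7 and 15.9 RPM in d4c7 FR10 and 6.11 and 7.72 RPM in d4 PGCLCs, and was not called (limma adjusted p = 0.098). Bmp7 stayed high as a value, at 73.6 and 72.8 RPM in d4c7 FR10 and 60.6 and 58.1 RPM in d4 PGCLCs, and was not called. Grem1, a secreted BMP antagonist, had 27.9 and 15.5 RPM in d4c7 FR10 and was listed at 0 in both d4 libraries (limma adjusted p = 7.63e-05). Col3a1 and Dcn, picked from the fibroblast list, were also higher in d4c7 FR10 than in d4 PGCLCs. The summed list of 18 was not, at 1045 and 989 RPM against 1149 and 1172 RPM. The part of feeder RNA in the Grem1 level was not tested.

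**Figure D4:**
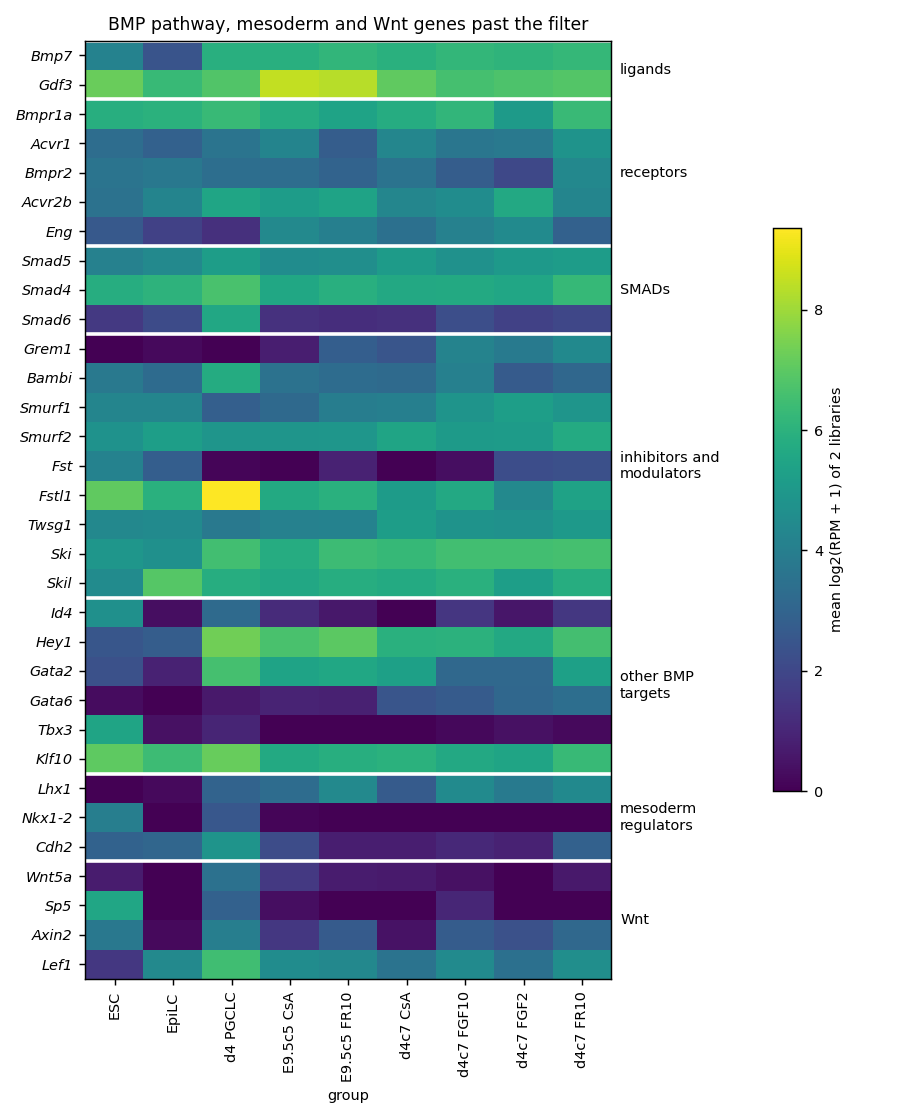
Mean log2(RPM + 1) over the 2 libraries of each group (columns) for the 32 pathway, mesoderm and Wnt genes past the filter (rows), grouped by role; the colour scale starts at 0. Smad6, Bambi and Fstl1 are brightest in d4 PGCLCs, Hey1 and Gata2 stay above their EpiLC level in all cultured groups, and Sp5, Axin2 and Tbx3 are brighter in ESCs than in EpiLCs.

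In EpiLCs against ESCs, 2 of the 32 were called higher and 8 lower, beside 7.09% and 8.86% of all tested genes. The lower genes Id4, Tbx3, Sp5 and Nkx1-2 are among those that passed the filter through ESCs alone. The Gata2 call was lost without ESC replicate 1 or either EpiLC library (limma adjusted p = 0.121 to 0.424). Id4, the fourth Id gene, had 0.190 and 0.387 RPM in EpiLCs, against 23.5 and 25.9 RPM in ESCs (-4.32 ± 0.48, limma adjusted p = 7.81e-06). Tbx3, a T-box repressor, had 0.762 and 0 RPM in EpiLCs, against 42.7 and 43.3 RPM in ESCs (limma adjusted p = 1.2e-06). Bmp7 was also lower (-1.70 ± 0.29, limma adjusted p = 0.000564). The Wnt targets Sp5, at 0 in EpiLCs and 36.7 and 57.0 RPM in ESCs, and Axin2, at 0 and 0.387 RPM in EpiLCs and 9.41 and 16.3 RPM in ESCs, were both lower (limma adjusted p = 1.41e-07 and 0.000429), as was Cdx1 among the 10 members.

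In culture, 1 of the 32 was called higher and 5 lower in d4c7 FGF2 against d4c7 FR10, beside 1.37% and 7.47% of all tested genes, and none in the CsA or FGF10 comparisons. All 6 calls, Gata2, Bmpr2, Eng, Bmpr1a, Hey1 and Cdh2, were lost with the 12 cultured libraries alone and without FR10 replicate 1 or replicate 2. Gata2 had 8.75 and 7.29 RPM with FGF2, against 34.9 and 43.5 RPM with FR10 (-2.15 ± 0.44, limma adjusted p = 0.0128). It had 6.30 and 10.1 RPM with FGF10, a difference of the same size that was not called (limma adjusted p = 0.413), and 34.7 and 44.1 RPM with CsA. Bmpr2, the type II BMP receptor, had 3.81 and 2.43 RPM with FGF2, against 17.8 and 21.1 RPM with FR10 (-2.33 ± 0.47, limma adjusted p = 0.0117). For Gata2 and Bmpr2, limma adjusted p became larger than 0.05 without FR10 replicate 1 (0.131 for each), FR10 replicate 2 (0.0733 for Gata2 and 0.0676 for Bmpr2) or FGF2 replicate 2 (0.0798 and 0.0847), and with the 12 cultured libraries alone (0.0809 and 0.0842).

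The ligand Gdf3 was the 1 pathway gene called between cultured embryo cells and cultured PGCLCs. It had 294 and 358 RPM in E9.5c5 FR10, against 105 and 122 RPM in d4c7 FR10 (1.51 ± 0.20, limma adjusted p = 0.00716), and 355 and 370 RPM in E9.5c5 CsA, against 129 and 134 RPM in d4c7 CsA (1.45 ± 0.20, limma adjusted p = 0.0116). The FR10 call was lost without d4c7 FR10 replicate 1 (0.373), d4c7 FR10 replicate 2 (0.0831) or E9.5c5 FR10 replicate 2 (0.335). The CsA call was lost without d4c7 CsA replicate 1 (0.195) or replicate 2 (0.186). The groups did not overlap in either comparison, as for 13.9% and 16.2% of all tested genes. The E9.5c5 and d4c7 groups also differ in strain label, sorting reporter and days in culture, and these cannot be told apart from origin.

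The tested members did not form a single pattern over the 18 libraries. Pearson's r of log2(RPM + 1) was 0.85 between Msx2 and Evx1, 0.73 between Id1 and Id3, 0.24 between Id2 and Id3, and 0.10 between Id3 and Cdx1. The 3 genes most like Id3 were Socs2 (r = 0.96), Scmh1 (0.96) and Cotl1 (0.95). Those most like Id2 were Nckap5l (0.95), Senp3 (0.94) and Crtc2 (0.94), and those most like Id1 were Spen, Tinagl1 and Sntb2 (each 0.80). Msx2 was most like Tes (0.93), Cln6 (0.92) and Ctsz (0.91), Evx1 most like Prr14 (0.91), Psmb2 (0.89) and Wnt5a (0.88), and Cdx1 most like Sparc (0.93), Manba (0.93) and Nkx1-2 (0.92). These values describe 18 libraries that share groups and the d4 libraries in particular, and they are not independent points. Id2, Msx2, Evx1 and Wnt5a passed the filter through d4 PGCLCs alone, so a shared d4 peak, which raises r among them, is built into the filter.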

How the data were processed

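Expression was measured in 18 libraries from 1 ng of RNA each, per the labels. The authors deposited RPM values, 1 per gene and library, which sum to 999098 to 999617. Build mm10 and the tools TopHat 1.4.1, Cufflinks 2.2.0 and cutadapt 1.3 appear in the submitters' processing notes with no role or order. The sources used here do not give the annotation or how reads were counted. Of 34896 rows, 46 had no value. Reads of paralogs that are alike at the 3' end may be split between them. Reads per library were inferred from the step between low RPM values, and between 99.63% and 99.76% of low values fell on whole steps (tolerance 0.02), while 32 to 56 values per library lay under 0.5 of a step, so reads serve only as a check of depth and for voom as an alternative. None of 20 housekeeping genes was at 0 in any library.

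All 18 libraries entered a limma fit (limma 3.58.1, R 4.3.3) of log2(RPM + 1) with 1 mean for each group and variances moderated along a trend, 9 residual degrees of freedom and a median residual SD of 0.370. The spread of a gene is thus pooled over groups whose replicates differ in repeatability. With the 6 uncultured libraries alone, the genes called for EpiLC against ESC went from 1525 to 3262. With the 12 cultured libraries alone, those for d4c7 FGF2 against FR10 went from 845 to 2. The test is two-sided. An exact permutation test of 2 against 2 libraries cannot go below p = 0.333, so none was run. The procedure was tested on simulated data. The 10 genes, the gene lists and the tests were chosen with earlier results of these data known. Named genes are the 10 members, up to 4 called genes of each list and comparison by smallest p or up to 2 uncalled as values, and for each tested member the 3 genes with the highest r, leaving out predicted genes and small RNAs. Some genes that the rule allows are left unnamed. Alternatives were other pseudocounts, filters, scaling, sample sets, a replicate block, single libraries left out, and voom, which was chosen after seeing the data.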

Additional observations from a re-analysis of the deposited data

How the results depend on the processing

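The number of tested members called was within 1.5 times its value in most settings. With a filter at 50 RPM only 2 members could be tested, and the counts became 0 for EpiLC against ESC, 2 for d4 PGCLC against EpiLC, 2 for d4 PGCLC against ESC and 2 for d4c7 FR10 against d4 PGCLC, because fewer genes were tested. For EpiLC against ESC the count of 1 became 2 with the 6 uncultured libraries alone and 2 without d4c7 FGF2, E9.5c5 FR10 and E9.5c5 CsA replicate 2, where Id1 also passed (limma adjusted p = 0.0174 and 0.0369). For d4c7 FGF2 against FR10 the count of 0 became 1 with a pseudocount of 0.1 (Msx2, limma adjusted p = 0.0465) and 1 with a pseudocount of 10 (Id1, 0.0476). The cause was not tested. Leaving out 1 library at a time gave 1 to 1 members for EpiLC against ESC, 6 to 6 for d4 PGCLC against EpiLC, 4 to 5 for d4 PGCLC against ESC, 5 to 5 for d4c7 FR10 against d4 PGCLC, and 0 to 0 in the 6 cultured comparisons and the interaction. A lone library was then assumed to vary like the other groups.

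Directions that turned belong to differences that were never called. For Id3 these are d4c7 FGF2 against FR10 (0.149 with median-ratio scaling, 0.169 without the 3 libraries), E9.5c5 CsA against FR10 (0.0726 without the 3 libraries) and E9.5c5 CsA against d4c7 CsA (-0.0362 with voom), and for Id1 E9.5c5 FR10 against d4c7 FR10 (-0.0705 without the 3 libraries). With 1 library left out, log2 differences ran from -1.26 to 0.662 for Id1 in d4c7 CsA against FR10, from -0.491 to 0.169 for Id3 in d4c7 FGF2 against FR10, from -0.851 to 0.0565 for Id3 in E9.5c5 CsA against FR10, from -0.0705 to 0.983 for Id1 and -0.0163 to 0.0748 for Id3 in E9.5c5 FR10 against d4c7 FR10, and from -0.783 to 1.14 for Id1 and -0.452 to 0.456 for Id3 in E9.5c5 CsA against d4c7 CsA. The cause was not tested.

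Over all genes, called counts ran from 826 to 3262 for EpiLC against ESC (1525 as reported), from 2256 to 5717 for d4 PGCLC against EpiLC (3784), from 1974 to 5350 for d4 PGCLC against ESC (3299), from 573 to 2964 for d4c7 FR10 against d4 PGCLC (1456), from 0 to 968 for d4c7 CsA (3), from 0 to 39 for d4c7 FGF10 (0), from 2 to 1722 for d4c7 FGF2 (845), and from 0 to 654, 0 to 259 and 0 to 1394 in the E9.5c5 comparisons (0, 4 and 1). Of 63 group levels, 11 moved by over 1 SD with median-ratio scaling. Over 36 group pairs, r between the deviations of libraries with the same replicate number ran from -0.10 to 0.34 and was above 0.1 in 7, which include all 6 pairs among d4c7 FR10, d4c7 FGF2, E9.5c5 FR10 and E9.5c5 CsA. With 2 replicate numbers and no shared batch in the labels, the numbers were not taken as pairs. With the replicate number as a block the members called stayed at 1, 6, 5 and 6 in the 4 comparisons with calls and 0 elsewhere, and among the pathway genes followed the d4c7 FR10 call of Hey1 was lost (limma adjusted p = 0.0509). Where both groups of a comparison lie at or under 3 inferred reads (0.397 to 1.41 RPM by library), a difference was not detectable at this depth.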
